A study of Rattus norvegicus with 2 samples.

Results

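The genes described here are the 8 named genes of the sphingosine 1-phosphate (S1P) pathway that were chosen by name among 14913 distinct gene names: the kinases Sphk1 and Sphk2, the receptors S1pr1 and S1pr2, the exporter Spns2, the lyase Sgpl1, the phosphatase Sgpp1 and the ceramide synthase Cers2. All 8 were present, and all 8 had 20 or more reads over both libraries, the minimum that 12102 of the 14913 names met. The RNA came from RBL-2H3, a rat basophilic leukemia line used as a stand-in for mast cells and basophils, in 1 poly(A)-selected library from wild-type cells with no treatment and 1 from wild-type cells incubated with IgE. The labels state neither a dose nor a duration of IgE, and do not say whether antigen followed. The series asks what follows when IgE acts through its high-affinity receptor on these cells.

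S1P is a signalling lipid made when a sphingosine kinase phosphorylates sphingosine, itself released from ceramide by ceramidases. It leaves the cell through transporters such as Spns2, binds G protein-coupled receptors of the S1pr family, and is removed either by phosphatases, which return it to sphingosine, or by the lyase, which breaks it down for good. In mast cells, engagement of the IgE receptor is known to activate sphingosine kinases, and the S1P they make acts back on the cell through S1pr1, linked to migration, and S1pr2, linked to degranulation.

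The untreated library held 20917968 counted reads and the IgE library 26268330, so that 3 reads, taken as the limit of detection, equalled 0.143 and 0.115 CPM (read counts scaled to the size of the library). Neither condition had a second library. Every difference below is therefore between 2 libraries, with no replicate check and no test across samples, and the 95% intervals are exact Clopper-Pearson intervals of the read ratio that cover counting error only. Of 10 mast cell and basophil markers, 9 were counted, and their summed level was 6486 CPM in the untreated and 6655 CPM in the IgE library. The sum covers differences in both directions. Of the 9 counting intervals, 7 excluded no change, against 38.5% of all genes with 20 or more reads. Many reads make such an interval narrow, and Kit, at -0.04, was among the 7 on 24516 and 29747 reads. Above 0 were Fcer1a, the IgE-binding chain of the receptor (log2 fold 0.34), the carboxypeptidase Cpa3 (0.27), Fcer1g (0.22) and Ms4a2 (0.13), and below 0 were Mcpt1 (-0.22), the transcription factor Gata2 (-0.11) and the receptor Kit (-0.04). The remaining marker, Mcpt8, was not analysed here.

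S1pr1 was the 1 gene of the 8 that differed at least 2-fold between the libraries, and it was higher with IgE. The other 7 lay within 2-fold, from -0.28 for Spns2 to 0.26 for S1pr2 on the log2 scale, on which a positive value is higher with IgE. Over all genes measured, 2.63% of those with 20 or more reads were at least 2-fold apart, and the 1 of 8 here is a weakly counted gene. The median log2 fold of the 8 was 0.05, against 0.0049 for all 12102 genes, with 4 of the 8 above 0 and 4 below. Over all genes 51.1% were above 0. In RNA from a whole culture, more or fewer cells that carry a transcript cannot be told apart from more or less transcript per cell.

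**Figure D1:**
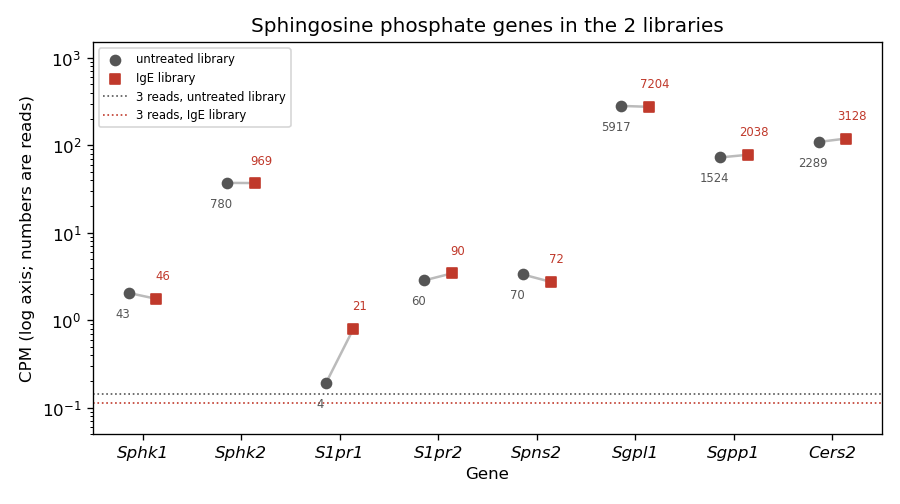
CPM (vertical log axis) of the 8 genes in the untreated library (grey circles) and the IgE library (red squares), with the number of reads beside each point and dotted lines at the CPM that 3 reads give in each library. The 2 points of S1pr1, from 4 and 21 reads, stand apart from each other, and those of the other 7 genes lie close together; heights of different genes are not corrected for transcript length.

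The receptors were counted on few reads. S1pr1, which couples to inhibitory G proteins, had 4 reads untreated and 21 with IgE, or 0.191 and 0.802 CPM. The ratio of the CPM values was 4.21, and the log2 fold, computed after adding 0.5 counts, was 1.96 (95% counting interval 0.51 to 4.08). The untreated library was thus 1 read above the limit of detection. With 5 counts added in place of 0.5 the log2 fold was 1.33. S1pr2, which couples to several classes of G protein, had 60 and 90 reads, or 2.86 and 3.44 CPM, a log2 fold of 0.26 (-0.22 to 0.76). Its interval spans no change. The reads of S1pr1 per read of S1pr2 were 0.0667 untreated and 0.233 with IgE. That is a log2 change of 1.80 (exact conditional 95% interval 0.13 to 3.87), which depends on no scaling and no transcript length. It rests on the same 4 and 21 reads of S1pr1, so it is not a second observation.

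S1pr1 ranked high among all genes by log2 fold, and it had few reads. What part the few reads have in that rank was not tested. Only 28 of the 12102 genes had a higher log2 fold, and 24 of these 28 were, like S1pr1, among the 1035 genes with 20 to 49 reads. In that range, chosen after the value of S1pr1 was seen, 21.7% of genes were at least 2-fold apart and 10.9% at least 2-fold higher with IgE. For S1pr1 the authors' deposited table gave a log2 fold change of 2.03, a p-value of 0.0101 and an adjusted p-value of 0.505, and edgeR's exact test with a fixed dispersion of 0.01 recomputed these p-values. S1pr1 was among the 451 names, 3.02% of all names, that the authors' deposited table of selected genes lists, and the other 7 genes were not. That selection did not rest on the adjusted p-value, and the authors' deposited table gave the other 7 an adjusted p-value of 1.

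**Figure D2:**
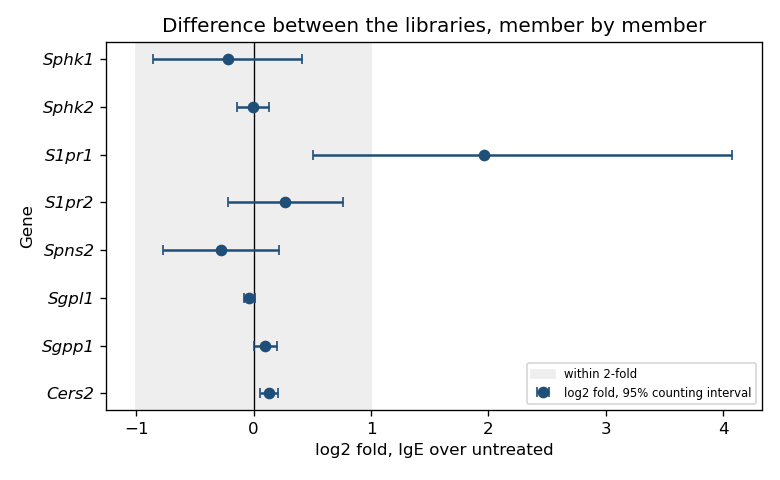
Log2 fold of the IgE over the untreated library for the 8 genes (points) with exact 95% counting intervals (bars); the grey band is the range within 2-fold. S1pr1 at 1.96 lies outside the band with an interval of 0.51 to 4.08 that reaches into it, and the 7 other points and their intervals lie within it.

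S1pr1 is also a gene of endothelium and lymphocytes, and markers of both were looked up beside it. Of 5 endothelial markers, Pecam1 and Tek were counted, with a summed level of 250.2 CPM untreated and 240.7 CPM with IgE. Cdh5, Kdr and Vwf were not analysed here. Of 5.0 lymphocyte markers, Cd79a and Lck were counted, with a summed level of 15.3 and 16.0 CPM. Cd79a, a B cell receptor chain, had 214 and 296 reads, a log2 fold of 0.15 (-0.11 to 0.41). Lck, a T cell kinase, had 108 and 124 reads, at -0.12 (-0.50 to 0.27). Of 5 macrophage markers, Cd68, Csf1r and Msr1 were counted, and their summed level was 5.48 CPM untreated and 3.21 CPM with IgE. Msr1, a scavenger receptor, had 26 and 7 reads, a log2 fold of -2.13 (-3.66 to -0.97), and like S1pr1 it is among the 451 names selected in the authors' deposited table. Cd68 was at -0.42 and Csf1r at -0.63, with intervals that span no change. Both libraries are labelled as cells of the RBL-2H3 line, and the labels name no other cell type. These markers are therefore transcripts counted in cultures of that line. The part of other cell types in the S1pr1 difference was not tested.

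The read ratio of S1pr1 to S1pr2 had a counting interval that excluded no change, on few S1pr1 reads. The promoters of this receptor pair are therefore shown. Each is the 250 bases before the gene's start in RefSeq on the rat build GRCr8, 5′ to 3′ on the gene's own strand, with matches to a GC box (GGGCGG) in capitals. The S1pr1 window lies at chr2:206314071-206314320 on the minus strand and the S1pr2 window at chr8:27790345-27790594 on the minus strand.
S1pr1: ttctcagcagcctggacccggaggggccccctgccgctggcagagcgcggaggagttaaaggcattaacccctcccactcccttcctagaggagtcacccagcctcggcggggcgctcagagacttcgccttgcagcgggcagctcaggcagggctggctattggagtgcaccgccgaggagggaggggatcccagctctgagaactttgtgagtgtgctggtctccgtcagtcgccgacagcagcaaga
S1pr2: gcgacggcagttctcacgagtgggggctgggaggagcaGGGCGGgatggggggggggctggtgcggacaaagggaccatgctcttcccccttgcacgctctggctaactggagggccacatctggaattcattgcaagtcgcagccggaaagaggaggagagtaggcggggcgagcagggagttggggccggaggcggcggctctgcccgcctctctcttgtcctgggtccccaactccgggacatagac
Both windows were rich in G and C, at 64.8% for S1pr1 and 66.4% for S1pr2, and held 14 and 15 CpG dinucleotides. The median over 27457 promoters of the same length was 52.0% and 6 CpG. The GC box was found once in S1pr2 and not in S1pr1, on either strand, and 32.4% of all promoters held it.

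Motifs of factors that act early after stimulation were looked for in the same windows, on both strands, as strings of which none contains another. The AP-1 site TGANTCA stood in 6.36% of all promoters, the cAMP response element TGACGTCA in 1.70%, the Egr site GCGTGGGCG in 0.514% and the NF-kappaB site GGANTTTCC in 1.06%. None of these 4 strings, nor the GATA string AGATAA (10% of promoters) or the TATA string TATAAA (13.1%), occurred in the 7 windows of these genes that the promoter table holds. Spns2 had no entry. The absence says only that these exact letters are not in these windows. The 7 windows ranged from 3 CpG in Sphk1 and 8 in Sphk2 to 26 in Sgpl1, 29 in Sgpp1 and 31 in Cers2, and only 4.31% of all promoters held more CpG than that of Cers2.

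The kinases, which make S1P, were close to level between the libraries. Sphk1, the mainly cytoplasmic kinase that moves to the plasma membrane on activation, had 43 reads untreated and 46 with IgE, or 2.05 and 1.76 CPM. Its log2 fold was -0.22 (-0.85 to 0.41), an interval that spans no change and is wide because of the few reads. Sphk2, the kinase found largely in the nucleus and other internal compartments, had 780 and 969 reads, or 37.2 and 37.0 CPM, a log2 fold of -0.01 (-0.14 to 0.13). Sphk2 is thus bounded much more tightly around no difference than Sphk1. The reads of Sphk1 per read of Sphk2 were 0.0551 and 0.0475, a log2 change of -0.22 (exact conditional interval -0.86 to 0.44). RefSeq annotates the noncoding gene Khps1a over part of Sphk1 on the build GRCr8, while the submitters' processing notes name the build rn6. Since the strand setting of the counting is not given in the sources used here, reads of the pair may not be separable.

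Spns2, the exporter of S1P, had 70 reads untreated and 72 with IgE, or 3.34 and 2.75 CPM. It had the lowest log2 fold of the 8, -0.28 (-0.77 to 0.22), and its interval spans no change. Of all genes over the minimum, 22.7% lay farther from 0 than Spns2.

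The enzymes that remove S1P were counted on many reads and lay close to level. Sgpl1, the lyase that cleaves S1P in the endoplasmic reticulum, had 5917 reads untreated and 7204 with IgE, or 282.0 and 275.1 CPM. Its log2 fold was -0.04 (-0.09 to 0.01), the narrowest interval of the 8. Sgpp1, the phosphatase that returns S1P to sphingosine, had 1524 and 2038 reads, or 72.6 and 77.8 CPM, a log2 fold of 0.10 (0.0034 to 0.20). That interval just excluded no change with TMM scaling, and with library totals it ran from -0.01 to 0.19. The summed reads of the kinases per read of lyase and phosphatase were 0.111 and 0.110, a log2 change of -0.01 (exact conditional interval -0.15 to 0.13). That ratio of summed reads was level between the libraries to within its interval. It rests mostly on Sphk2 and Sgpl1, which held most of the summed reads, and it leaves out the phosphatases Plpp1 and Plpp2.

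Cers2, the synthase that attaches very long acyl chains to make ceramide and so draws on the same sphingoid bases as the kinases, was slightly higher with IgE. It had 2289 and 3128 reads, or 109.1 and 119.5 CPM, a log2 fold of 0.13 (0.05 to 0.21). Among all genes over the minimum, 49.3% lay farther from 0 than Cers2. Setdb1, which RefSeq annotates across part of the Cers2 span on GRCr8, had 3775 and 4475 reads and a log2 fold of -0.07 (-0.14 to -0.01). As with Sphk1, reads of this pair may not be separable. With S1pr1 and Sgpp1, Cers2 made 3 of 8 genes whose counting interval excluded no change with TMM scaling, against 38.5% of all genes over the minimum, a share that these genes do not exceed.

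**Figure D3:**
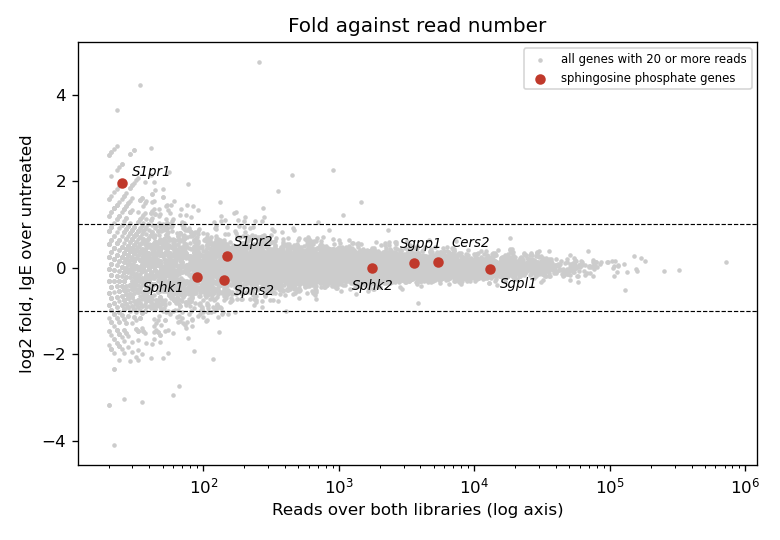
Log2 fold of the IgE over the untreated library against the reads over both libraries (log axis) for the 12102 genes with 20 or more reads (grey) and the 8 S1P genes (red); dashed lines mark a 2-fold difference. S1pr1, at 25 reads, lies where folds scatter most, and Sphk2, Sgpp1, Cers2 and Sgpl1 lie within the narrow band of well-counted genes.

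The rest of the pathway was close to level as well. The 7 lists of related genes named 61 genes, of which 48 were present and 47 had 20 or more reads. Of these 47, none had a 2-fold higher level with IgE (1.33% of all genes over the minimum did) and 1 was lower by 2-fold or more (1.3% of all genes). Another view is the counting interval: 12 of the 47 had one that excluded no change, 7 above 0 and 5 below, or 25.5% against 38.5% of all genes. Their median log2 fold was 0.01. The gene past 2-fold was Acer2, a ceramidase of the Golgi, with 15 reads untreated and 9 with IgE, at -1.01 (-2.43 to 0.23).

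Among the other receptors, transporters and phosphatases of S1P, 7 genes were over the minimum, 2 above and 5 below 0, with a median of -0.12. The highest was S1pr4, a receptor of blood cells, with 7 and 17 reads at 0.92 (-0.38 to 2.47), the same direction as S1pr1 but with an interval that spans no change. The lowest was Apom, which encodes a carrier of S1P in plasma, at -0.17 (-0.84 to 0.50). Abcc1, a transporter linked to S1P export from mast cells, had 2486 and 2819 reads and was lower at -0.14 (-0.22 to -0.06). Mfsd2b, the S1P exporter of red cells and platelets, had 1 and 0 reads, under the limit of detection in both libraries. S1pr3, S1pr5, Sgpp2 and Plpp3 were not analysed here.

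De novo ceramide synthesis, which begins with serine palmitoyltransferase, had 12 genes over the minimum, 7 above and 5 below 0, with a median of 0.02. The highest was Sptssa, a small activating subunit of that enzyme, which stood at 44.8 CPM untreated and 56.6 CPM with IgE, a log2 fold of 0.34 (0.22 to 0.46). Of the subunits of its catalytic core, Sptlc1 was at 0.02 and Sptlc2 at -0.0003. The Ormdl genes, which encode inhibitors of the same enzyme, pointed different ways. Ormdl3 stood at 30.0 and 36.5 CPM (0.28, 0.13 to 0.43), Ormdl2 at 28.2 and 23.8 CPM (-0.24, -0.41 to -0.08) and Ormdl1 at 125.1 and 122.9 CPM (-0.03). Of the other ceramide synthases, Cers5 was at 0.17 (0.10 to 0.24), Cers4 at -0.04, and Cers1, the lowest of the list with 18 and 12 reads, at -0.87 (-2.09 to 0.23).

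The ceramidases that release sphingosine were level where they were well counted. Acer3 stood at 83.6 and 88.8 CPM (0.09, -0.0029 to 0.18) and Asah1, the lysosomal acid ceramidase, at 44.5 and 46.6 CPM (0.06, -0.06 to 0.19). In sphingomyelin turnover, 3 of 8 genes were above 0 and 5 below, with a median of -0.08. Smpdl3a, a relative of acid sphingomyelinase, was highest at 0.43 (0.05 to 0.82) on 91 and 153 reads, and Smpd1, acid sphingomyelinase itself, lowest at -0.22 (-0.36 to -0.09). The synthases Sgms1 and Sgms2, which make sphingomyelin from ceramide, were at -0.13 and -0.15, and both intervals span no change.

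Genes for other uses of ceramide had 6 of 8 above 0 and a median of 0.07. The highest was Cptp, a ceramide 1-phosphate carrier, at 0.26 (-0.14 to 0.68). Ugcg, which makes glucosylceramide, was at 0.15 (0.06 to 0.24), and the ceramide kinase Cerk was lowest at -0.03 (-0.16 to 0.11). Downstream of the lyase, Aldh3a2, which oxidises its aldehyde product, was at 0.01. In the same list the ethanolamine kinase Etnk1 was highest at 0.06 and Pcyt2, the next enzyme on that route, lowest at -0.0008.

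The G protein alpha subunits through which S1P receptors signal had 3 of 6 genes above 0 and a median of -0.02. Gnai3, an inhibitory subunit, was highest at 0.10 (0.06 to 0.14), while its relative Gnai2 was at -0.09 (-0.14 to -0.04). The lowest was Gna11 at -0.15 (-0.28 to -0.03). These subunits were well counted, from 460 reads for Gnaq to 10857 for Gnai3 in a library. The intervals of Gnaq, Gna12 and Gna13 span no change.

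**Figure D4:**
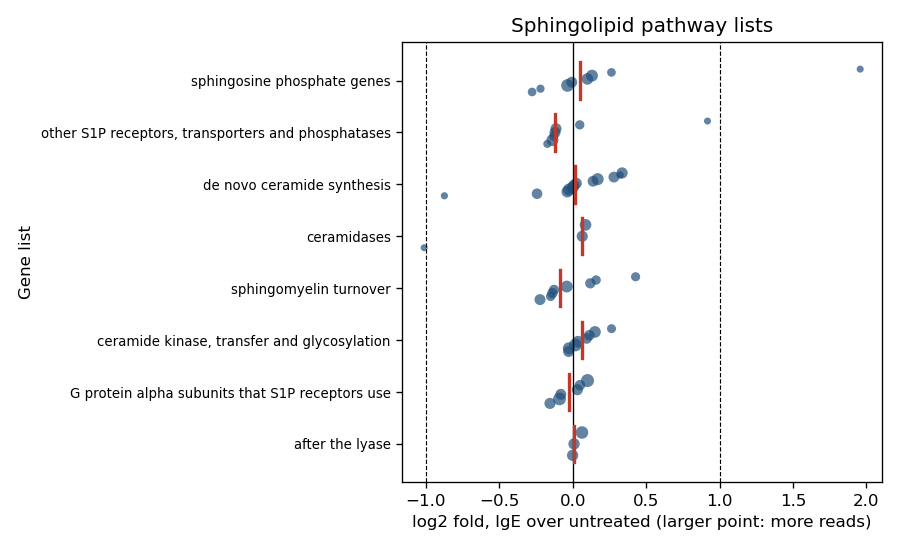
Log2 fold of the IgE over the untreated library for each gene with 20 or more reads in the 8 S1P genes and the 7 related lists (points, larger with more reads), with the median of each list (red bar) and dashed lines at a 2-fold difference. The medians run from -0.12 to 0.07, and the points past a 2-fold difference, S1pr1 at 1.96 and Acer2 at -1.01, are small.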

How the data were processed

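RBL-2H3 cells gave 2 poly(A) RNA-seq libraries, 1 untreated and 1 with IgE, grouped by the treatment label. The authors deposited raw read counts per gene name, with log2 fold changes and p-values for the comparison, per the file headers. Per the submitters' processing notes, the tools were HISAT2 2.1.0, fastp 0.23.0 and DESeq2 1.18.1 and the build rn6, with no role given. Which counting tool and strand setting were used is not given in the sources used here. Repeated identical rows (2077 of 16990) were kept once. The deposited p-values were recomputed to within 3.47e-08 by edgeR's exact test with a fixed dispersion of 0.01, a coefficient of variation of 0.1 that no replicate measured.

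From the counts, CPM and log2 folds were computed with edgeR 4.0.16 (R 4.3.3) over all genes, using TMM and adding 0.5 counts as the prior. Intervals were computed with scipy 1.17.1 at the 95% level. The description used a minimum of 20 reads and a 2-fold rule. The calculation was tested on simulated data with counting error only. Known changes were set only in well-counted genes, so recovery of a change at the read number of S1pr1 was not tested. The alternatives were library totals, DESeq2 1.42.0 size factors, 5 added counts, a minimum of 100 reads or none, and a 1.5-fold rule. The S1P genes and lists were chosen with earlier results of these data known. The text names all 8 S1P genes, the highest and lowest of each list and those past 2-fold, and others named from the lists were chosen after their values were seen. The promoter table matched 7 of the 8 genes. Some marker genes of the lists are not reported here.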

Additional observations from a re-analysis of the deposited data

How the results depend on the processing

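The log2 folds of the 8 S1P genes stayed within their counting intervals and kept their sign in all 24 combinations of gene and alternative (library totals, DESeq2 size factors, a prior of 5 counts). The count of S1P genes at least 2-fold apart was 1 in each alternative but a minimum of 100 reads, which leaves S1pr1 out by construction and gave 0. The counting interval excluded no change for 3 S1P genes with TMM or DESeq2 size factors and for 2 with library totals, which lost Sgpp1. This interval rule and the range of 20 to 49 reads were added after the data were seen. All 40 alternative list medians stayed between the median lower and the median upper interval bound of the genes in their list. Of the 40, 1 changed sign, that of the list with Aldh3a2, Etnk1 and Pcyt2 (-0.0002 with library totals). Over the whole table, against 161 higher and 157 lower genes past 2-fold, adding 5 counts gave 104 and 99, dropping the minimum 855 and 875, a minimum of 100 reads 21 and 15, and a 1.5-fold rule 443 and 427. The prior and the minimum act on weakly counted genes by construction. No paired analysis was possible because each condition is 1 library, and for the same reason none could be left out. An order of the 8 genes by level per coding length was not run, since no coding lengths were used here.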

Other observations

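Names related to this pathway that stood in no list were looked up by symbol. Spns1, a lysosomal transporter of the Spns2 family, had 1299 reads untreated and 1506 with IgE, a log2 fold of -0.11 (95% counting interval -0.21 to 0.0021). Spns3, the third gene of that family, had 67 and 90 reads, at 0.11 (-0.37 to 0.58). Sphkap, which encodes a sphingosine kinase interacting anchor protein, had 10 and 16 reads, at 0.35 (-0.87 to 1.66). All 3 intervals span no change.

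Transcripts used as markers of endothelium and platelets were counted in both libraries. Pecam1, an adhesion molecule of endothelium and blood cells, stood at 195.2 CPM untreated and 196.4 CPM with IgE. Tek, an angiopoietin receptor, stood at 55.0 and 44.3 CPM, a log2 fold of -0.31 (-0.43 to -0.19). Pf4, a chemokine of platelets, stood at 127.6 and 168.1 CPM, a log2 fold of 0.40 (0.33 to 0.47), while Itga2b, another platelet gene, had 160 reads in each library, at -0.32 (-0.64 to 0.01). The values come from single libraries and carry no test.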
